A study of Mus musculus with 6 samples.

Results

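Msx1 and Msx2 are 2 homeobox genes, and the H3K4me1 regions that lie at them or nearest to them were mapped in the embryonic mouse whisker pad. Regions were chosen by position alone. A region counted for a gene when a peak overlapped the gene body or the 5 kb on either side of it, or lay up to 300 kb away with that gene's start site as the nearest protein-coding start site. Peaks of the replicates that shared at least 1 bp were merged into 1 region. By this rule Msx1 had 3 regions and Msx2 had 13, together 16 of the 19251 merged regions of the genome. The 16 regions held 49 peaks over the 3 replicates, of which 16 belonged to Msx1 and 33 to Msx2.

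Msx1 and Msx2 encode homeodomain proteins that mostly repress transcription. In the embryonic face both genes are expressed in neural crest-derived mesenchyme and in ectoderm beside it, where BMP ligands bind their receptors, SMAD proteins carry the signal to the nucleus, and Msx genes are among the targets that are switched on. Mice without Msx1 have a cleft palate and arrested teeth, and mice without Msx2 have defects of the skull and of hair cycling. H3K4me1 is histone H3 with 1 methyl group on lysine 4, a mark of enhancers and of the flanks of promoters that is found at active enhancers and at enhancers not yet in use. A peak of this mark is a measure of chromatin and not of a gene's transcript level.

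The study dissected whole whisker pads from wild-type embryos at embryonic day 12, labelled strain B6/J2, digested them to single cells, and applied CUT&Tag, a method that sequences the fragments cut out by a transposase tethered to an antibody. Peak lists of the 3 samples made with an H3K4me1 antibody were analysed and are called replicates 1, 2 and 3 after their titles. The 3 IgG control samples are not analysed here, and the values therefore have no IgG background beside them. The pad holds mesenchyme, ectoderm, nerve, muscle and vessels, so the cells that carried a peak cannot be told apart, nor can more cells with the mark and more mark in each cell. No label says whether the replicates came from separate embryos or litters, so the spread between them may be partly technical.

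The titles give whisker pad for every sample, but the source name of replicates 2 and 3 reads adult kidney. Of 10 facial mesenchyme genes, 10, 9 and 10 had a peak over the gene body or 5 kb flanks in replicates 1, 2 and 3. Of all 21755 protein-coding genes, 5415, 4923 and 4256 had such a peak. Of 10 adult kidney genes, 3, 3 and 1 had one, and Nphs1 and Umod were among the 7 with none in any replicate. The kidney peaks found in replicates 2 and 3 were those of Slc12a1, at percentiles 9.27 and 22.0, and, in replicate 2, of Aqp2 and Pax8, at percentiles 29.8 and 13.9. Of 10 surface ectoderm genes, 7, 7 and 3 had a peak, and of 5 genes each, endothelium had 2, 1 and 1, skeletal muscle 3, 3 and 3, glia and nerve 3, 3 and 1, and erythroid cells 0, 0 and 0. Replicate 3 thus held fewer ectoderm and glial genes than the other 2. It also held the fewest genes with a peak among all protein-coding genes, and these lists are short. Whether this moved the Msx values was not tested. Values are given for each replicate at the Msx1 regions, the region over Msx2 and its highest distal regions. There replicate 1 can be read alone. The lower Msx2 regions and the genes of the lists are given mostly as means or counts over the replicates.

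The lists held 16788, 12969 and 13998 peaks, and the weakest peak of each had a total signal of 14265, 24247 and 19337. Total signal is the fragment pileup summed over the bases of a peak, without scaling to depth, so peaks are given by their percentile, the share of the peaks in the same list with the same or a lower total signal. The study's methods state 1 sequencing depth for all samples, and the reads left in each library after alignment are not known from the lists. A stretch without a peak is a stretch that did not reach the top 1% of signal blocks, not one without the mark.

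Sequences are shown where the highest pileups of all 3 replicates coincided, at 1 distal region of each gene, and at the 2 promoters, where the replicates differed in coverage. Pileups of 2 replicates lay closer together at some points not shown. One such point lay 213.8 kb upstream of Msx2, where those of replicates 2 and 3 were 0 bp apart. At 3 places the highest pileups of all 3 replicates lay within 300 bp of each other. They lay 10.01 kb upstream of Msx1 (chr5:37834447-37834746, pileups 134 bp apart), 75.6 kb upstream of Msx2 (chr13:53548530-53548829, 225 bp apart) and 247.6 kb upstream of Msx2 (chr13:53720500-53720799, 45 bp apart). The distal region of each gene that was strongest by total signal is added at a point where 2 replicates coincided. For Msx1 this was 72.1 kb upstream (chr5:37896572-37896871, replicates 1 and 3, 4 bp apart), and for Msx2 128.7 kb upstream (chr13:53601599-53601898, replicates 1 and 2, 136 bp apart). Each is the plus strand of mm10, and capitals mark the bases from the first to the last of the coinciding pileups.
Msx1, 10.01 kb upstream: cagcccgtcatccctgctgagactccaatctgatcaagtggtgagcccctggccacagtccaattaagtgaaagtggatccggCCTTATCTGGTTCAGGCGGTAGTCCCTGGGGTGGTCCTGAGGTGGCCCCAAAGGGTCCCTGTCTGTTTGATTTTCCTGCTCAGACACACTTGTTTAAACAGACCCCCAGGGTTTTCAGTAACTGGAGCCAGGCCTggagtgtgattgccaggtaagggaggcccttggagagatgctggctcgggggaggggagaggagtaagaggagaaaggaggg
Msx1, 72.1 kb upstream: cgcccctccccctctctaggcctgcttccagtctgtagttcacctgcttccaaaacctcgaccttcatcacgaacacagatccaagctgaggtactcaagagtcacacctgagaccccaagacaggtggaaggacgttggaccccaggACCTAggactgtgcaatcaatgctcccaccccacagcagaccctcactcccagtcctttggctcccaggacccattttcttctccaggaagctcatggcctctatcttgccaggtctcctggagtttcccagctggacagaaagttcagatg
Msx2, 75.6 kb upstream: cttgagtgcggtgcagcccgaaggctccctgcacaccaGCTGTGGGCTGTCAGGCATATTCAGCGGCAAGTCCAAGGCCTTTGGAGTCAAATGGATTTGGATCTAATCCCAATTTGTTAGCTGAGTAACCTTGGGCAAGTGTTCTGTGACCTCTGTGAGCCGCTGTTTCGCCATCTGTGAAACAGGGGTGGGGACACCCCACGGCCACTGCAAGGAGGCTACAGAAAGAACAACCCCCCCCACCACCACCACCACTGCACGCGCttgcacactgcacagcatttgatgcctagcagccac
Msx2, 128.7 kb upstream: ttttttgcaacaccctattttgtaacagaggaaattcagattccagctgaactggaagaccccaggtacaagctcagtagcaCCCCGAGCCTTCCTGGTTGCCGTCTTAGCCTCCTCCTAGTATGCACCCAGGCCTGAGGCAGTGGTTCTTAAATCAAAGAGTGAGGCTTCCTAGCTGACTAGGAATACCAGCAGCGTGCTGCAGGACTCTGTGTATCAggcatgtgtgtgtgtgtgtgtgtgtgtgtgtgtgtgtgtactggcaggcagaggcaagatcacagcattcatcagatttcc
Msx2, 247.6 kb upstream: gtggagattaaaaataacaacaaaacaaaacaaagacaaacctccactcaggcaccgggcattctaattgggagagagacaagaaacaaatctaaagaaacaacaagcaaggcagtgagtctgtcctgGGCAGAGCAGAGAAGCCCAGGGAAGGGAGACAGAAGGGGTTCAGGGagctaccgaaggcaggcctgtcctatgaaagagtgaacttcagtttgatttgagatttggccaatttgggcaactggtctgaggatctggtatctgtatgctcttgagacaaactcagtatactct

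The promoters come from RefSeq (GRCm38.p6), run along the minus strand on which both genes lie, and hold 250 bases before the RefSeq start in lower case and the 50 bases from the start on in capitals. The window of Msx1 is chr5:37824536-37824835 and that of Msx2 is chr13:53472731-53473030. The RefSeq start lies 2 bp from the GENCODE start at Msx1 and 294 bp downstream of it at Msx2, and distances in the text are from the GENCODE start.
Msx1 promoter: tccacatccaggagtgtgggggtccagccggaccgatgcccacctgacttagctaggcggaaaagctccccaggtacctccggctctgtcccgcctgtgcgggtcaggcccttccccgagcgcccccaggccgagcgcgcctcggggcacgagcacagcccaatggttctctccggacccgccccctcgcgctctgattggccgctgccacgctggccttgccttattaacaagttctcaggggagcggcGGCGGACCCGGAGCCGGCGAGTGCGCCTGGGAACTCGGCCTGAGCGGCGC
Msx2 promoter: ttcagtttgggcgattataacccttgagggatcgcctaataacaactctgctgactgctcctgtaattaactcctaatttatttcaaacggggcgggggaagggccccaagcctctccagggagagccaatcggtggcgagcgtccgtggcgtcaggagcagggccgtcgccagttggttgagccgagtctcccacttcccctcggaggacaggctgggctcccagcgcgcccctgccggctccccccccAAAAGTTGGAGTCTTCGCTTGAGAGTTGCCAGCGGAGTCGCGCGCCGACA

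Both promoters are rich in CpG. G and C made up 70.0% of the Msx1 window and 61.0% of the Msx2 window, and the observed to expected CpG ratio was 0.794 and 0.789, against medians of 52.7% and 0.384 over 32851 promoters. The 5 upstream windows had CpG ratios between 0.132 and 0.334.

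Short motifs were searched on both strands in the 300 bp at the highest pileup of each of the 16 regions. LEF/TCF factors, the nuclear partners of β-catenin, were represented by the core CTTTGAT and by its variant that ends in another base, which reads CTTTGAA. SMAD proteins were represented by the palindrome GGCGCC and by the joint element of SMAD1/5 with SMAD4, which reads GGCGNCNNNNNGTCT. Homeodomain proteins of the MSX family were represented by the core TAATTG. Matches to CTTTGAT were in 1 window and those to TAATTG in 2, and the other letters were in 0. These windows are not placed as the printed ones are, but each match also lies in a printed window. Over all 19250 region windows CTTTGAT was in 3.95%, CTTTGAA in 6.37%, GGCGCC in 2.34%, the joint element in 0.0571% and TAATTG in 7.97%. Over the promoters these shares were 3.73%, 5.14%, 11.9%, 0.244% and 8.0%, and the 2 Msx promoters held none of the letters. Nothing about the Msx regions is read from so few matches. The CTTTGAT match lies on the minus strand at bases 154 to 160 of the window 128.7 kb upstream of Msx2, among its capitals. The TAATTG matches lie at bases 61 to 66 of the window 10.01 kb upstream of Msx1, on the minus strand, and at bases 65 to 70 of the window 247.6 kb upstream of Msx2, on the plus strand, both outside the capitals. A further TAATTG lies outside the searched windows, 236.3 kb upstream of Msx2, in an unprinted window where pileups of replicates 1 and 2 coincided. A match is a run of letters and no measured binding.

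Msx1 (ENSMUSG00000048450.10) spans chr5:37820485-37824583 in mm10, on the minus strand. The stretch nearest to its start site was 151.6 kb long. It reached 107.1 kb upstream, to the midpoint with Stx18, a syntaxin of membrane traffic, whose start lies 214.2 kb away, and 44.5 kb downstream, toward Cytl1, a secreted cytokine-like protein, 89.1 kb away. The 300 kb limit was therefore never reached. All 3 regions of Msx1 had peaks in all 3 replicates, where 46.3% of the regions of the genome did. One region lay over the gene and the other 2 lay upstream.

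**Figure D1:**
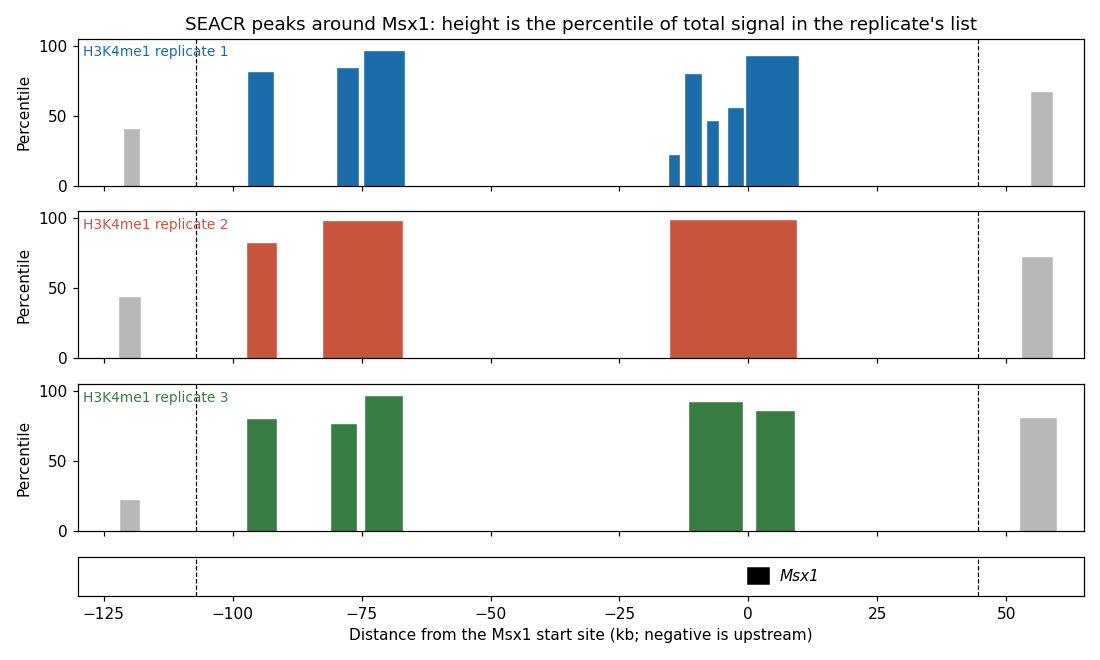
Peaks around Msx1 in the 3 H3K4me1 replicates. The horizontal axis is the distance from the Msx1 start site in kb (negative is upstream), each box is 1 peak as wide as the peak and as high as its percentile of total signal, dashed lines bound the stretch nearest to Msx1, and grey boxes are the first peaks outside it. The broad region over the gene and the region 74.7 kb upstream were each 1 box in replicate 2 and several boxes in replicates 1 and 3.

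The region over Msx1 was broad and was cut differently in each replicate. It spanned chr5:37814984-37839989, 25.01 kb, and ranked 58 by length among the 19251 regions. In replicate 1 it held 5 peaks, in replicate 2 a single peak of 24.4 kb, and in replicate 3 2 peaks. Its strongest peak lay at percentile 92.9 in replicate 1, 98.6 in replicate 2 and 92.0 in replicate 3. Of its bases, 57.9% were covered in all 3 replicates and 90.3% in at least 2. The region ran from 9.60 kb downstream of the start site, past the end of the gene, to 15.4 kb upstream. Within it the highest pileup was not at the gene itself. In replicates 2 and 3 the strongest peak was highest 9.95 and 10.08 kb upstream, in the first window printed above, and replicate 1 had a separate peak there, highest 9.98 kb upstream and at percentile 80.1. Replicates 1 and 3 each had another maximum 5.49 and 5.68 kb downstream of the start, beyond the end of the gene.

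The second region lay 74.7 kb upstream and carried about as much signal as the region over the gene. It spanned chr5:37891448-37907106, 15.7 kb, and its strongest peak lay at percentile 96.1 in replicate 1, 98.4 in replicate 2 and 96.2 in replicate 3 (mean 96.9 ± 1.33, SD, n = 3). Its total signal was 241607, 399781 and 224245 in replicates 1, 2 and 3, against 253091, 413015 and 198871 in the region over the gene. The ratio of the distal to the gene region was thus 0.955, 0.968 and 1.13, with neither region the larger in all replicates. The region overlapped exons of the long noncoding RNA gene Gm20052, which lies on the opposite strand. The highest pileup of replicates 1 and 3, in the second window printed above, fell in an exon of that gene, and that of replicate 2 fell in an intron 69.7 kb upstream of Msx1.

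The third region, 94.5 kb upstream, overlapped no annotated gene. It spanned chr5:37916171-37921900, 5.73 kb, and was a single peak in each replicate, at percentiles 81.1, 82.4 and 80.0 (81.2 ± 1.21, SD, n = 3). Of its bases, 85.9% were covered in all 3 replicates. Outside the stretch, the next peak upstream lay 119.7 to 120.0 kb from the start site, nearest to Stx18, at percentiles 40.5, 43.95 and 21.9. The next peak downstream lay 55.9 to 56.8 kb away, nearest to Cytl1, at percentiles 67.0, 72.5 and 81.1.

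How many regions Msx1 had rested on replicate 2, whose wide peaks joined those of the other lists. Without replicate 2 there were 6 regions, of which 5 had a peak in both remaining replicates. When the start sites of noncoding genes were also counted, Msx1 kept 1 region, the one over the gene.

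Msx2 (ENSMUSG00000021469.9) spans chr13:53466884-53473074, also on the minus strand, and lies in a wider gap between genes. Its stretch was 339.1 kb long. It reached 291.3 kb upstream, to the midpoint with Drd1, a dopamine receptor, 582.6 kb away, and 47.8 kb downstream, toward Sptlc1, a subunit of the first enzyme of sphingolipid synthesis, 95.7 kb away. Of its 13 regions, 9 (69.2%) had peaks in all 3 replicates, 2 in 2 replicates and 2 in 1. Over both genes this was 12 of 16 regions (75%), and replicate 1 alone had peaks in 3 of the Msx1 regions and 11 of the Msx2 regions. All 11 distal regions of Msx2 lay upstream, as did both of Msx1, and 0 lay downstream. The upstream part of each stretch was also the longer, and the sides were not compared per kb. Of the 13 regions, 10 overlapped no annotated gene.

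**Figure D2:**
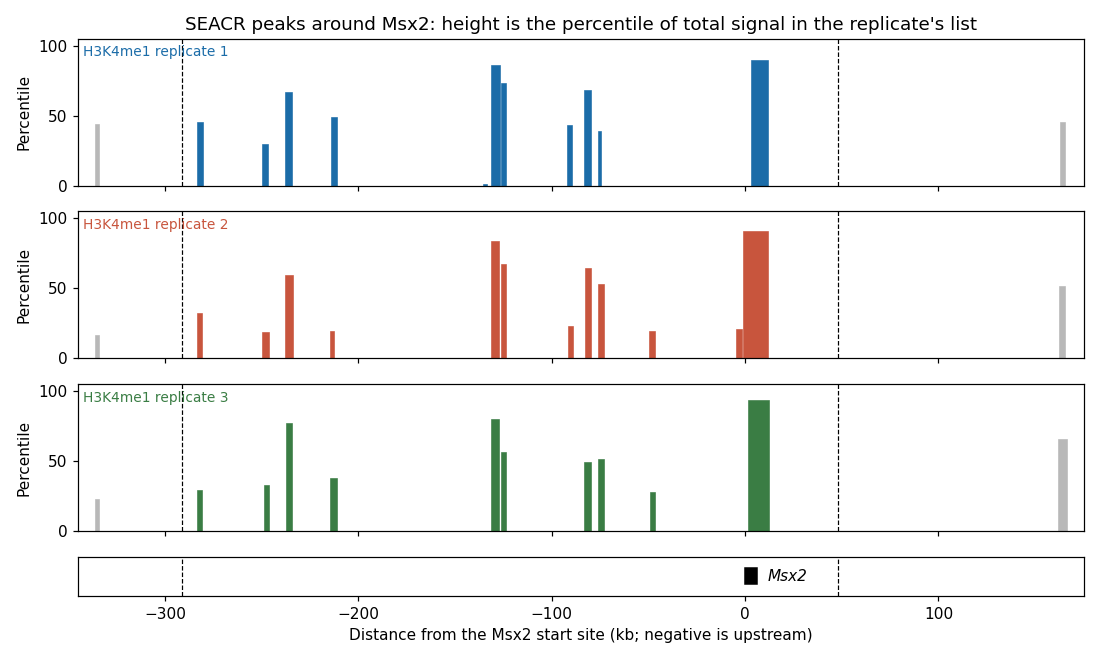
Peaks around Msx2 in the 3 H3K4me1 replicates. The horizontal axis is the distance from the Msx2 start site in kb (negative is upstream), each box is 1 peak as wide as the peak and as high as its percentile of total signal, dashed lines bound the stretch nearest to Msx2, and grey boxes are the first peaks outside it. Of the 11 distal regions 8 had a peak in all 3 replicates, the highest of them 129.3 kb upstream, and none lay in the downstream part of the stretch beyond the region at the gene.

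The region over the Msx2 gene covered its downstream side. It spanned chr13:53460616-53473953, 13.3 kb, and was a single peak in each replicate, at percentile 89.6 in replicate 1, 90.8 in replicate 2 and 93.3 in replicate 3. The peak was 8.97, 12.7 and 11.1 kb long. Its highest pileup lay 7.66, 8.23 and 6.74 kb downstream of the start site, past the end of the gene. In replicate 3 that point is the centre of a level 2048 bp wide, which reached back over the end of the gene. A second, weak region lay 3.07 kb upstream (chr13:53474589-53477694) and was found in replicate 2 only, at percentile 21.1.

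By total signal, the strongest distal region of Msx2 lay 129.3 kb upstream. It spanned chr13:53600059-53604702, 4.64 kb, and lay at percentiles 86.4, 83.5 and 79.7 in replicates 1, 2 and 3 (83.2 ± 3.37, SD, n = 3). By total signal it was the highest of the distal Msx2 regions in each of the 3 lists, and it was also the longest of them. By maximum signal it lay at percentiles 79.9 and 69.5 in replicates 2 and 3. The region 125.0 kb upstream was higher by that measure in replicate 2, at 83.5, and the region 235.9 kb upstream in replicate 3, at 91.2. The region 129.3 kb upstream thus did not lead by every measure. Its edges were the most alike among the Msx2 regions, with 97.0% of its bases covered in all 3 replicates. The region beside it, 125.0 kb upstream (chr13:53596531-53599571, 3.04 kb), lay at percentiles 73.2, 67.8 and 56.6. The other high region lay 235.9 kb upstream (chr13:53706714-53711180, 4.47 kb), at percentiles 67.2, 59.6 and 77.2. It was highest in replicate 3, where the regions 125.0 and 129.3 kb upstream were lowest.

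Lower regions stood between and beyond these. Those in all 3 replicates lay 74.6, 81.5, 212.9, 247.9 and 282.0 kb upstream, with mean percentiles of 47.8, 60.6, 35.5, 27.2 and 35.8. The region 212.9 kb upstream lay in an intron of the long noncoding RNA gene Gm34278, and its highest pileup fell on the same base in replicates 2 and 3. The 4 regions that were not in all replicates were weak by total signal, with mean percentiles from 0.995 to 33.2, which overlap those above. They were the region 3.07 kb upstream, one 48.1 kb upstream in replicates 2 and 3, one 90.4 kb upstream in replicates 1 and 2, and one 134.4 kb upstream in replicate 1 only. The region 48.1 kb upstream overlapped the long noncoding RNA gene Gm34022. By maximum signal it was not weak, at percentiles 48.4 and 84.2 in replicates 2 and 3. Because each list ends at a minimum total signal, a weak region can drop out of a list by a small difference. Outside the stretch, the next peak upstream lay 335.1 to 335.2 kb away, nearest to Drd1, at percentiles 43.7, 16.7 and 22.7, and the next downstream lay 163.8 to 164.2 kb away, nearest to Ror2, at percentiles 45.5, 51.5 and 65.5.

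The Msx2 count depended on how far and by which start sites regions were assigned. Within 100 kb there were 6 regions, and in the stronger 50% of each list there were also 6. When start sites of noncoding genes were counted, 2 regions remained with Msx2 and 1 of them was in all replicates.

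**Figure D3:**
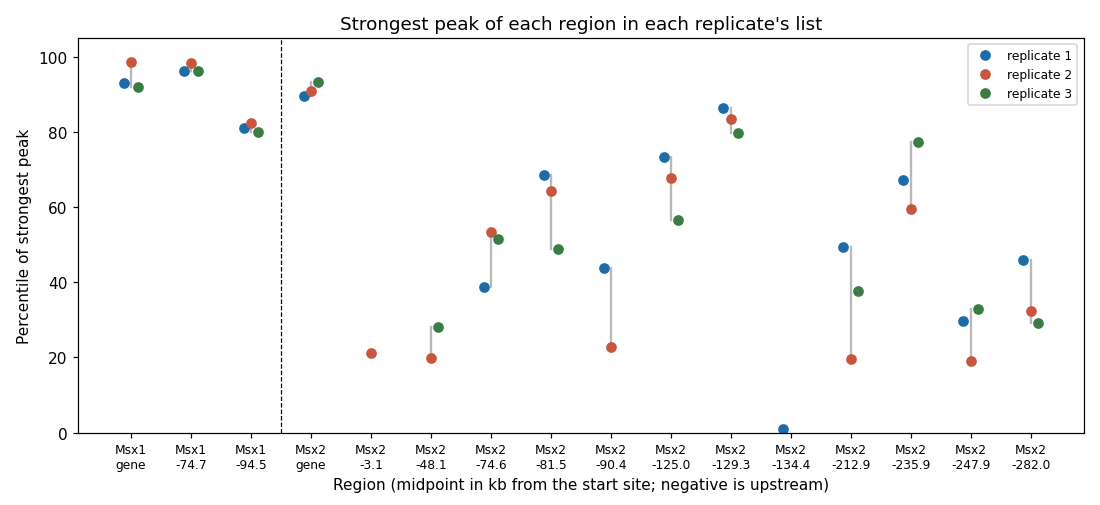
Percentile of the strongest peak in each of the 16 regions, with 1 point for each replicate that had a peak and a grey line over their range. Regions are ordered by distance within each gene, and the dashed line separates Msx1 from Msx2. The 3 Msx1 regions lay between percentiles 80.0 and 98.6, and the Msx2 regions ranged from 0.995 to 93.3.

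Peaks covered the Msx1 start site in 2 of 3 replicates and the Msx2 start site in 1 of 3. In replicate 1 the Msx1 start lay near the end of a peak, and 713 bp without a peak followed, from 382 to 1096 bp upstream of the start. In replicate 3 a stretch of 2786 bp without a peak ran across the Msx1 start, from 1582 bp downstream to 1205 bp upstream. In replicate 2 the single broad peak ran through. The printed Msx1 promoter window therefore lay within a peak in replicates 1 and 2 and outside every peak in replicate 3. The Msx2 start was covered in replicate 2 only, where 635 bp without a peak followed, from 879 to 1515 bp upstream. In replicates 1 and 3 the peak over the gene stopped 2794 and 1364 bp downstream of the start, and the next peak upstream began 74.5 and 46.6 kb away. The printed Msx2 promoter window was thus in a peak in 1 of 3 replicates.

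**Figure D4:**
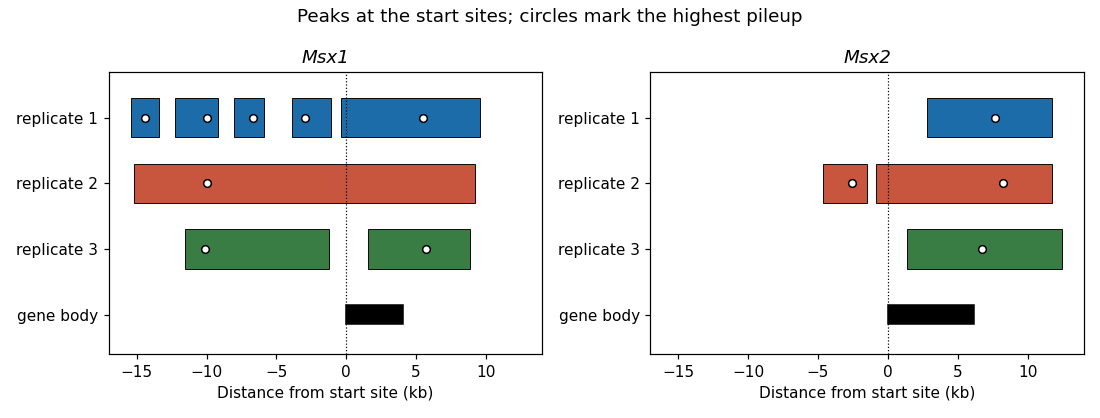
Peaks around the start sites of Msx1 and Msx2. The horizontal axis is the distance from the start site in kb (negative is upstream), coloured boxes are peaks of each replicate, white circles mark the highest pileup of a peak, and black boxes are the gene bodies. Peaks of Msx1 reached 15.4 kb upstream, while those of Msx2 lay mainly downstream of its start.

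After merging, Msx1 had few broad regions and Msx2 many narrow ones, a contrast that was smaller without replicate 2. The median region length was 15.7 kb for Msx1 and 3.35 kb for Msx2, against 3.65 kb over all regions. Without replicate 2 the medians were 6.63 kb over 6 Msx1 regions and 3.29 kb over 12 Msx2 regions. In replicate 1 alone, the 8 Msx1 peaks had a median length of 3.61 kb and the 11 Msx2 peaks 2.91 kb. Together the regions spanned 46.4 kb at Msx1 and 55.1 kb at Msx2. The stretch of Msx1 held 1.98 regions per 100 kb and that of Msx2 3.83, and without replicate 2 the order turned, with 3.96 and 3.54. These values without replicate 2 were added after the data were seen. These are descriptions of regions that share 3 libraries, and no test was made over them.

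For 6 measures the 2 genes were set against each other within each replicate by an exact permutation test of the 3 differences, two-sided. This test cannot give a p below 0.25 with 3 replicates, so no difference could pass 0.05 by it. The strongest peak over the gene body and 5 kb flanks lay at percentile 94.5 ± 3.57 for Msx1 and 91.2 ± 1.89 for Msx2 (SD, n = 3), a difference of 3.23 ± 4.53 that changed sign between replicates (exact p = 0.5). Without replicate 2 that difference was 0.981, with flanks of 1 kb 1.26, and with ranking by maximum signal 16.0. By total signal the strongest distal peak was higher for Msx1 in 3 of 3 replicates, at 96.9 ± 1.33 against 83.2 ± 3.37. The difference was 13.7 ± 3.54 percentile points (exact p = 0.25).

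Coverage with 5 kb flanks also stood higher at Msx1 in each replicate. Peaks covered 86.8, 100 and 78.7% of the Msx1 gene body with 5 kb flanks in replicates 1, 2 and 3, and 51.9, 93.7 and 60.7% of that of Msx2. The difference was 19.7 ± 14.4 percentage points (exact p = 0.25, n = 3), and it was 12.1 without replicate 1. With flanks of 1 kb the difference was 8.06 ± 25.5, and Msx1 was higher in 2 of 3 replicates (exact p = 0.75). Of the whole stretch, peaks covered 24.2, 29.8 and 23.5% at Msx1 and 11.5, 14.5 and 11.95% at Msx2, and these values did not overlap. That difference was 13.2 ± 1.97 percentage points (exact p = 0.25, n = 3). Among 21491 protein-coding genes, 2.80% had a stretch covered at least as much as that of Msx1 and 7.43% as that of Msx2. These shares depend on the length of the stretch, which was 151.6 kb at Msx1 and 339.1 kb at Msx2. The merged regions together spanned 46.4 kb at Msx1 and 55.1 kb at Msx2, so Msx1 did not have more marked sequence in all.

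The regions can also be given as a share of all listed signal. The Msx1 regions took 0.0677, 0.0929 and 0.0660% of the summed signal of the lists, and the Msx2 regions 0.0530, 0.0682 and 0.0636%. Msx1 was higher in 3 of 3 replicates, by as little as 0.00231 percentage points in replicate 3 (exact p = 0.25). Summed over the gene body and flanks, the signal lay at a mean percentile of 83.4 for Msx1 and 72.3 for Msx2 among genes with a peak, again with an exact p of 0.25.

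The region counts can be set beside those of other genes. Of 21755 protein-coding genes, 11.3% had at least 3 regions by the same rule and 5.53% at least 3 regions in all replicates. For Msx2, 0.961% had at least 13 regions and 0.680% at least 9 in all replicates. A gene with distant neighbours is given a longer stretch, so these shares describe the gap around a gene as well as the mark in it. At least 1 region in all replicates was found at 19.5% of genes by the whole rule, and a peak over the gene body and 5 kb flanks in all replicates at 15.5%, which both Msx genes had.

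Over the genome, regions richer in G and C held less of the signal of replicate 3 relative to replicate 2, and the Msx values are given beside those of regions of like composition. How far composition set the Msx values was not tested. The share of list signal in replicate 3 over replicate 2 was -0.65 on the log2 scale in the region over Msx1 (51.6% G and C), where regions within 1 point of the same composition had a median of -0.55. It was 0.62 in the Msx2 region 235.9 kb upstream (44.6% G and C), where the median was 0.43. Over the 12 regions in all replicates, the difference from the median at the same composition ran from -0.33 to 0.44, with 6 regions above and 6 below.

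By the percentiles of the signal summed over gene body and flanks in the 3 libraries, the nearest of 3249 genes to Msx1 were Cacna1c, a calcium channel subunit, Eps8, a regulator of actin, and Sdc4, a cell surface proteoglycan. Their distances were 5.42, 6.54 and 6.76 percentile points. The nearest to Msx2 were Cnksr3, a scaffold protein, Bmp4, a BMP ligand, and Fam20a, a protein of enamel formation, at 1.32, 2.33 and 3.37 points. Msx2 lay at percentiles 68.7, 75.1 and 73.2, and Bmp4 at 67.1, 75.1 and 71.6. Many genes have similar percentiles, and 3 libraries order them only loosely.

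Msx3, the remaining gene of the family, is expressed in the dorsal neural tube. It had no peak over its gene body or 5 kb flanks in any replicate. Its 1 region, chr7:140058977-140063274, lay 12.04 kb upstream in replicates 1 and 2 at percentiles 1.65 and 15.8. Both were near the lower end of the lists.

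The BMP pathway acts upstream of Msx genes, and 14 of 18 listed genes had a peak over the gene body and 5 kb flanks in all 3 replicates, where 15.5% of all genes did. The median percentile of the 14 was 81.9, against 71.9 over all genes with such peaks. Among the ligands, Bmp2, Bmp4, Bmp5 and Bmp7 all had one, and Bmp7 was highest at 99.4 ± 0.0857 (SD, n = 3). Of the receptors, Bmpr1a, Bmpr1b and Acvr1 did, and Bmpr2 had a peak in replicate 3 only, at 25.1. Of the transducers, Smad1 and Smad5 did, and the common partner Smad4 had peaks in replicates 2 and 3 at 9.33 and 5.57. The inhibitory Smad6 and Smad7 lay at 99.8 ± 0.0832 and 99.95 ± 0.0105, and the extracellular inhibitor Grem1 at 62.7 ± 3.21, while the BMP antagonist Nog had none over its gene body and flanks but 2 regions by the whole rule, 1 of them in all replicates. Of the Id genes, which are direct BMP targets as Msx genes are, Id1 lay at 83.5 ± 5.71 and Id3 at 94.6 ± 2.05, and Id2 had peaks in replicates 1 and 2 only, at 44.6 and 37.2. Longer genes offer more bases to a peak, and this was not adjusted for.

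**Figure D5:**
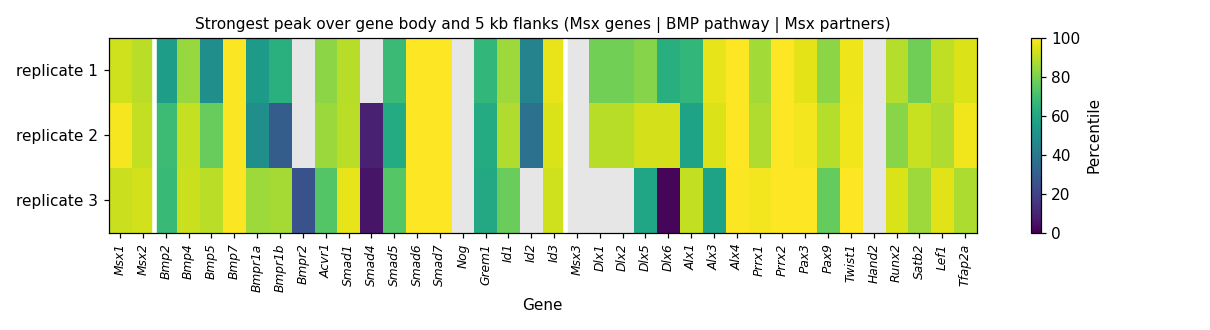
Percentile of the strongest peak over the gene body and 5 kb flanks in each replicate, for Msx1 and Msx2, 18 BMP pathway genes and 18 Msx partner genes. Each column is a gene, each row a replicate, the colour scale runs from 0 to 100, and light grey means no peak over the gene body and flanks. Msx1 and Msx2 were filled in every replicate, as were 14 genes of each list, and Nog, Msx3 and Hand2 were grey in every replicate.

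The Msx partner list holds Msx3 and genes that share the facial mesenchyme or ectoderm with Msx genes or act with them. Of its 18 genes, 14 had such a peak in all replicates. Of all genes, 15.5% did. The median percentile of the 14 was 89.7, against 71.9 over all genes with such peaks. This list and the BMP list were chosen with earlier results of these data known. Alx4 and Prrx2, homeobox genes of facial mesenchyme, lay at 99.7 ± 0.199 and 99.7 ± 0.0821, and Twist1, a mesenchymal bHLH factor, at 98.4 ± 1.24. Lef1, the nuclear partner of β-catenin, lay at 91.3 ± 3.804, close to Msx2. Dlx5 and Dlx6 shared their strongest peak in replicate 2 only, at 93.6. They lay at 81.8 and 63.3 in replicate 1 and at 58.8 and 1.79 in replicate 3. Dlx1 and Dlx2, which also share a peak, had none in replicate 3, and Hand2, a gene of the lower jaw and heart, had none at all. Of these genes, 7 are also in the facial mesenchyme list, so the 2 counts are not separate. Over the 36 genes of both lists, 8 with peaks in all replicates had a higher mean percentile than Msx1 and 11 than Msx2. By the whole rule 19 of the 36 had more regions than Msx1, and 4 had more than Msx2. Those 4 were Runx2 with 33, Smad7 with 19, and Bmp7 and Pax3 with 15 each.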

How the data were processed

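The authors called peaks in each H3K4me1 replicate with SEACR v1.3 (stringent, without IgG, top 1% of signal blocks). Bowtie2 2.3, SAMtools 0.1.19, bedtools and mm10 are named in the submitters' processing notes, and the handling of duplicates is not given in the sources used here. The deposited signal columns are the total and the maximum fragment pileup of each peak, not scaled to depth. The IgG samples were not analysed here.

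Peaks were merged at 1 bp of overlap and assigned by midpoint to the nearest of 54050 start sites of protein-coding transcripts (GENCODE vM21, chromosomes 1 to 19 and X). Promoters are from RefSeq. Python 3.11.15, NumPy 2.4.6, SciPy 1.17.1 and pysam 0.24.0 were used, and the steps were tested on simulated peaks. Named were both genes, Msx3, members of the BMP pathway and Msx partner lists, the genes bounding the stretches, and the 3 genes nearest each member in percentiles. Marker genes and the next genes beyond the stretches were named beside them after their values were seen. Genes and lists were chosen with earlier results of these data known. Alternatives covered the assignment, flank, reach, list depth, ranking and each replicate left out.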

Additional observations from a re-analysis of the deposited data

How the results depend on the processing

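Of 104 recomputed values of 14 results, 86 stayed within the spread between replicates, within 1.5 times for counts, or in the same direction for differences, 17 moved further, and 1 changed direction. The exception was the difference in regions per 100 kb, Msx1 minus Msx2, which was -1.85 with all replicates and 0.419 without replicate 2, whose wide peaks join those of the other lists. With start sites of all annotated genes, Msx1 had 1 region and Msx2 2, with 1 of each in all replicates. Within 100 kb Msx2 had 6 regions, 3 of them in all replicates, and in the stronger 50% of each list 6 and 4. Where peaks had to overlap by 50% of each other, 1 Msx1 region was in all replicates. Leaving out 1 replicate gave 3 to 6 Msx1 regions and 3 to 5 in all remaining replicates, the higher values without replicate 2. With flanks of 20 kb the covered share was 46.9% for Msx1 and 25.9% for Msx2. The percentile of the strongest gene-body peak was 78.3 for Msx1 and 62.3 for Msx2 by maximum signal, and 65.1 and 50.1 by signal per length. No paired analysis was possible because the groups that share replicate numbers are H3K4me1 and IgG, and IgG is not analysed here. Msx1 and Msx2 were set against each other within each library. By the exact test no difference between the 2 genes could pass 0.05 with 3 replicates. With a fixed top 1% and no aligned depth given for each library, weak regions can drop out of a list.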
